A study of Rattus norvegicus with 28 samples.

Results

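Exendin-4 (Ex-4) was compared directly with forskolin (FSK) after 16 h of treatment in INS-1 cells that carry Med14 S983A, an alanine in place of 1 serine of the Mediator subunit MED14. INS-1 is a rat insulinoma line with features of pancreatic beta cells. The comparison used 4 of the 28 RNA-seq libraries of the series, namely the 2 libraries of Med14 S983A cells given 10 nM Ex-4 for 16 h and the 2 given 10 µM FSK for 16 h. Members were taken by the labelled genotype, treatment and time and not by an expression value, although earlier results of these data were known. Beside them stand the 2 untreated Med14 S983A libraries (CON, for which the labels give no time), the 2 Ex-4 and 2 FSK libraries of the same line at 8 h, and the Ex-4, FSK and untreated libraries of wild type (WT) INS-1 cells, with 2 libraries in each group. All of these cells had been moved to serum-free medium before treatment. Each agent was used at a single dose, so a difference between Ex-4 and FSK is a difference between these doses as much as between the agents. The knock-in alleles were made by genome editing with a repair template that also brought in silent changes, in lines that were each grown from single sorted cells. The study describes 2 such lines, the labels do not say which line gave which library, and p-values therefore measure only the spread between these libraries.

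Ex-4 is a peptide agonist of the GLP-1 receptor, which couples to Gs and raises cAMP in beta cells, and its signal is shaped by receptor desensitisation and internalisation. FSK is a plant diterpene that activates adenylyl cyclases directly and needs no receptor. In both cases cAMP activates protein kinase A (PKA), which phosphorylates CREB at genes whose promoters hold cAMP response elements, and the first wave of targets includes phosphodiesterases, the CREM repressors and other genes that dampen the pathway. Mediator links such activators to RNA polymerase II, and MED14 is its central scaffold subunit. The altered serine is the PKA site examined in the study. In beta cells cAMP is best known for amplifying insulin secretion and for supporting beta cell identity genes.

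The 4 libraries held between 46119925 and 53755735 gene fragments, within the range of 42551133 to 92635979 over the series. Replicates correlated at r = 0.998 (Ex-4) and 0.999 (FSK) on the log2 scale. Spiked-in ERCC control RNAs, added per mass of total RNA, took 0.955% (95% Wilson interval 0.952% to 0.958%) and 0.819% (0.817% to 0.822%) of the fragments with Ex-4, and 0.715% (0.713% to 0.717%) and 0.671% (0.669% to 0.673%) with FSK; these intervals cover counting error only. The FSK libraries thus held fewer spike-in reads per cellular read than the Ex-4 libraries, and scaling to the spike-ins moved the median log2 difference of all 10275 genes tested from 0.040 to -0.28. Values below are relative abundances in TPM, the share of all transcripts after correction for length. The ERCC-scaled value is given where it changes the reading of a gene list. Calls of single genes are on the TPM scale unless stated, and some of them are lost with ERCC scaling. Since these are bulk libraries, fewer cells expressing a gene and less RNA per cell cannot be told apart. Of the beta cell markers, Ins1, Ins2, Iapp, Pdx1, Nkx6-1, Neurod1, Slc2a2, Slc30a8 and Abcc8 were all present, and Mafa was not analysed here. Irx2, Prss1, Amy2a3, Ptf1a, Col1a2 and Ptprc, defining markers of alpha, acinar, fibroblast and immune cells, were at 0 TPM in all 4 libraries, and Sst and Ppy of delta and PP cells were at 0 in the Ex-4 libraries and at no more than 0.034 TPM with FSK. Med14 itself was at 21.1 and 19.8 TPM with Ex-4 and 19.6 and 21.2 TPM with FSK. A point mutation does not lower its own transcript, so this level does not check the genotype label.

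Of the 10275 genes tested, 1085 (10.6%) were higher with Ex-4 than with FSK and 592 (5.76%) were lower, by limma on log2(TPM + 1) with a Benjamini-Hochberg adjusted p below 0.05 and a fold above 1.5. These shares are the background against which the TPM-scale counts for each gene group are read. The gene lists were chosen with earlier results of these data known, so their counts are descriptions and not tests. With each library centred on its median gene the counts became 859 and 789, and with ERCC scaling 531 and 2029, so the balance between the directions depends on the scaling. Counts for a gene group under either of these scalings are read against these counts of all 10275 genes. The ERCC-scaled counts themselves moved to 679 and 1327 without Ex-4 replicate 1 and to 432 and 2996 without Ex-4 replicate 2. All 592 genes called lower and 531 of the 1085 called higher kept their call in all 3 scalings, and no called gene changed sign. Non-overlap of the 2 Ex-4 with the 2 FSK libraries is not a useful filter in itself, because it held for 82.4% of all genes tested.

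Comparison with untreated cells of the same genotype, which reuses the same Ex-4 and FSK libraries, gave larger changes on the FSK side. Against CON, 486 genes (4.73%) rose and 735 (7.15%) fell with Ex-4, whereas 1255 (12.2%) rose and 2168 (21.1%) fell with FSK. The FSK counts became 1755 and 1616 with median centring and 2102 and 1418 with ERCC scaling, and the Ex-4 counts 573 and 596, and 377 and 1033. The 1085 genes higher with Ex-4 than with FSK had a median log2 difference from CON of -0.29 with Ex-4 and -1.19 with FSK. For the 592 lower genes the medians were 0.25 and 1.15. The medians thus lay on the same side of 0 with both agents and nearer to 0 with Ex-4. These comparisons share libraries, so their values stand side by side and are not independent.

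The genes with the largest excess under Ex-4 were led by products of the secretory granule and calcium handling that FSK had strongly lowered. Scgn (secretagogin, a calcium-binding protein of endocrine cells, chr17:43357888-43399321 on rn6) was at 1036 and 985 TPM with Ex-4 and 96.5 and 99.2 TPM with FSK, a log2 difference of 3.36 ± 0.049, adjusted p = 1.5e-25 (here and below ± is the SE from limma). The CON libraries held 1294 and 1125 TPM, so the Ex-4 level lay near the untreated level and the FSK level far below it. Scg2 (secretogranin II, a granule matrix protein, chr9:85237537-85242842) was at 1182 and 1166 TPM with Ex-4 and 134 and 139 TPM with FSK (3.10 ± 0.037, adjusted p = 3.9e-27), beside 1378 and 1335 TPM in CON. Wif1, which encodes a secreted inhibitor of WNT ligands (chr7:63094955-63165158), was at 257 and 239 TPM with Ex-4 and 23.9 and 26.5 TPM with FSK (3.25 ± 0.042, adjusted p = 1.1e-26). Baiap3 (chr10:14601133-14613881), a C2-domain protein of dense-core vesicle traffic, was at 66.1 and 57.9 TPM with Ex-4 and 6.30 and 6.12 TPM with FSK (3.12 ± 0.091, adjusted p = 1.2e-19). The 2 groups were separate for each of these genes. Mir3547 (21.9 and 15.5 TPM with Ex-4 and 0.891 and 1.02 TPM with FSK) lies within Baiap3 on the same strand, so its reads cannot be told apart from those of Baiap3. The other genes among the 12 largest were Fxyd6, a regulator of the sodium pump (2.64), Pcp4l1 (2.62), Vil1, the actin bundler villin (2.57), Oas1f, of the 2'-5' oligoadenylate synthetase family (2.57), Dmrta1, a doublesex-related transcription factor (2.47), Olfml2b (2.45) and Tmod1, the actin pointed-end capper tropomodulin (2.35). All 12 kept their call with ERCC scaling. For each of them FSK was below CON, with log2 differences from -2.84 for Tmod1 to -4.23 for Baiap3, and the difference of Ex-4 from CON ran from -0.21 for Scg2 to -1.61 for Olfml2b.

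**Figure D1:**
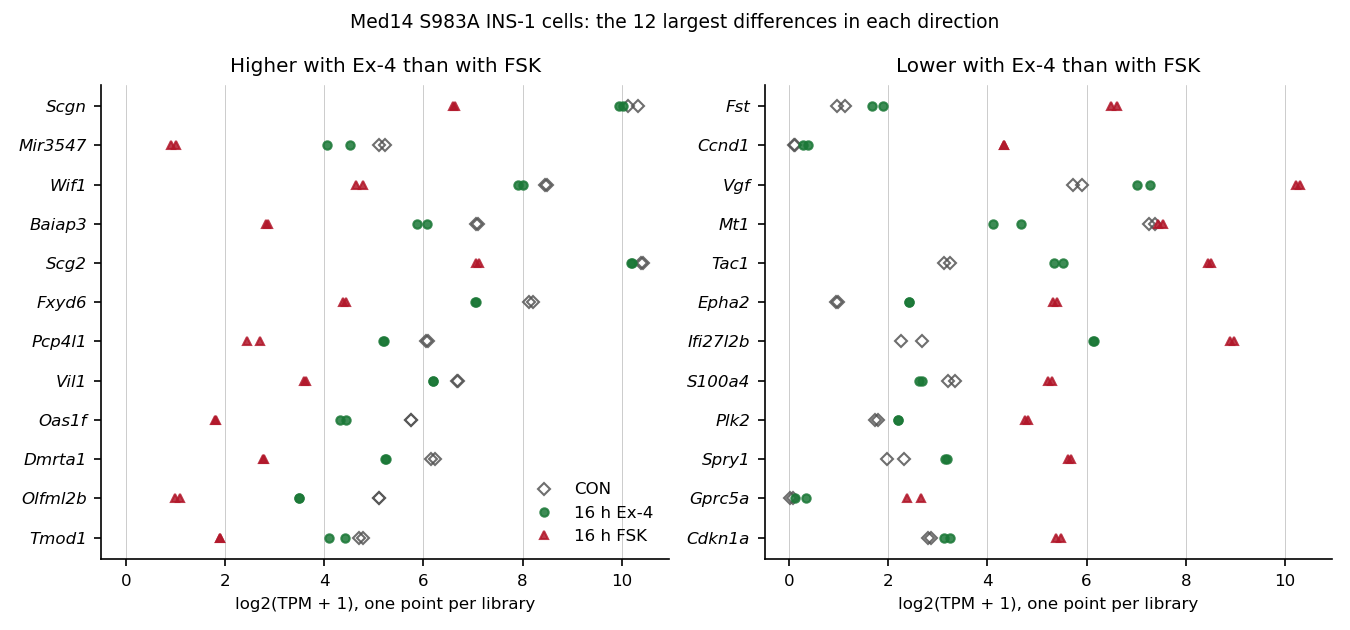
Each point is 1 library of Med14 S983A cells, placed by log2(TPM + 1) on the horizontal axis, for the 12 genes with the largest excess (left) and the 12 with the largest deficit (right) with Ex-4 relative to FSK; open grey diamonds are CON, green circles 16 h Ex-4 and red triangles 16 h FSK. On the left the Ex-4 libraries sit between CON and FSK or at CON, and on the right FSK stands far above both except for Mt1, where CON and FSK coincide and Ex-4 is low.

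With the exception of Mt1, the largest deficits under Ex-4 were in genes that FSK had raised above their untreated levels. Fst (follistatin, which binds and neutralises activins, chr2:46537589-46544452) was at 2.70 and 2.18 TPM with Ex-4 and 96.6 and 89.5 TPM with FSK (-4.78 ± 0.086, adjusted p = 1.1e-23), with 1.17 and 0.956 TPM in CON. Ccnd1 (cyclin D1, which drives entry into S phase, chr1:218090750-218100272) was at 0.309 and 0.207 TPM with Ex-4 and 19.2 and 19.05 TPM with FSK (-4.002 ± 0.083, adjusted p = 1.4e-22) and all but silent in CON at 0.0710 and 0.0860 TPM. The 2 FSK libraries stood far from the others for both genes, and the Ex-4 libraries stayed close to CON. Vgf (a neurosecretory granin, chr12:22677607-22680630) was at 128 and 155 TPM with Ex-4 and 1268 and 1192 TPM with FSK (-3.11 ± 0.067, adjusted p = 3.3e-22), and Tac1 (the substance P precursor, chr4:33638853-33646821) was at 45.01 and 39.4 TPM with Ex-4 and 349 and 361 TPM with FSK (-3.04 ± 0.093, adjusted p = 3.7e-19). Both had also risen with Ex-4 against CON, by 1.33 and 2.24, but far less than the 4.44 and 5.29 seen with FSK. Epha2, an ephrin receptor (-2.95), Ifi27l2b (-2.79), S100a4, a calcium-binding protein (-2.61), Plk2, a polo-like kinase (-2.60), Spry1, an inhibitor of receptor tyrosine kinase signalling (-2.49), Gprc5a (-2.29) and Cdkn1a, the cell cycle inhibitor p21 (-2.24), completed the list together with Mt1. Mt1 (metallothionein 1, chr19:11301991-11303007) differed from the rest of the 12. It was at 16.2 and 24.5 TPM with Ex-4 and 172 and 184 TPM with FSK (-3.10 ± 0.11, adjusted p = 6.0e-18) and at 152 and 166 TPM in CON. Ex-4 thus lay -2.93 from CON on the log2 scale and FSK 0.16.

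The palindromic cAMP response element (CRE) was searched for near the start of the genes named by the rule given below. Promoter sequences are shown for 5 genes that held it and that span both directions of the comparison. The search also found it for Ppp1r15a (log2 difference -1.01), Ndufb2 (0.60), Mdh2 (-0.46) and Hsp90ab1 (-0.45), which are not shown. Mdh2 and Hsp90ab1 were short of the fold minimum. Each run of 128 bases comes from RefSeq on GRCr8, a later build than the rn6 coordinates given for genes, with the CRE letters TGACGTCA in capitals.
Scg2, minus strand, chr9:88256922-88257049, CRE starting 123 bases before the gene start: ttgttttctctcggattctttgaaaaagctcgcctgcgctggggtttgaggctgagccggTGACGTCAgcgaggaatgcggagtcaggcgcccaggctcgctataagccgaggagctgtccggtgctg
Vgf, minus strand, chr12:25277043-25277170, 90 bases before the start: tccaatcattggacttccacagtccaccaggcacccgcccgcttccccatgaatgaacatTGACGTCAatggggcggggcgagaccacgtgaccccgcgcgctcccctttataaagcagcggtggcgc
Plk2, plus strand, chr2:43702410-43702537, 66 bases before the start: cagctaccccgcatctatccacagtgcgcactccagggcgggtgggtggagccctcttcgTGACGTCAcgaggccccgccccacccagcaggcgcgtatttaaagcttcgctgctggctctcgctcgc
Epha2, plus strand, chr5:158888517-158888644, 52 bases before the start: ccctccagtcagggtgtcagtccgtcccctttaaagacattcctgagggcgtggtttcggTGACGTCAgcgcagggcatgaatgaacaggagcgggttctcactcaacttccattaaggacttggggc
Crem, plus strand, chr17:58985395-58985522, 35 bases before an internal start: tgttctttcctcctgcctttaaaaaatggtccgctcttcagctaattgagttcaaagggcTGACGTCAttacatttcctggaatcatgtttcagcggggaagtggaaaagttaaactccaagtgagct
Crem also held a CRE 56 bases before an annotated start further upstream (chr17:58984681-58984808), which is not shown. The start of the Crem window shown is called internal only because it lies downstream of that start. The Scg2 and Vgf promoters both carry the intact palindrome and their transcripts differed in opposite directions, with log2 differences of 3.10 and -3.11. Plk2 (3.56 and 3.56 TPM with Ex-4 and 27.1 and 26.02 TPM with FSK), Epha2 (4.34 and 4.34 TPM with Ex-4 and 41.1 and 39.3 TPM with FSK) and Crem (38.8 and 35.9 TPM with Ex-4 and 95.0 and 97.9 TPM with FSK) were lower with Ex-4, as Vgf was.

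Over all promoters the CRE stood in a smaller share of windows in either direction of the comparison than among tested genes in general. Windows ran from 250 bases before to 50 after each annotated start, both strands were searched, and 8201 of the tested genes matched the promoter table by symbol. The CRE stood in 1.83% of all 33469 windows, in 3.32% of the 8633 windows of tested genes, in 2.44% (22 of 901) of windows of genes higher with Ex-4 and in 2.83% (14 of 494) of windows of genes lower with Ex-4. The AP-1 site, spelled TGACTCA or TGAGTCA, stood in 4.63% of all windows, 3.22% of those of tested genes, 2.77% of those of genes higher with Ex-4 and 6.88% (34 of 494) of those of genes lower with Ex-4. A CRE and an AP-1 site spelled this way cannot share bases, and a match in these windows is a description of sequence, not of binding. The differences between these shares were not tested.

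Beta cell transcription factors were for the most part more abundant with Ex-4 than with FSK. Of 13 tested, 10 were higher and 1 was lower, and the list median was 0.79 (0.44 with ERCC scaling) beside 0.040 over all genes. With ERCC scaling 6 were called higher and 1 lower, so some of the calls below hold on the TPM scale only. Rfx6, a factor required for islet development, was at 107 and 94.6 TPM with Ex-4 and 21.6 and 23.3 TPM with FSK (2.11 ± 0.067, adjusted p = 6.4e-19). Nkx2-2, a repressor that guards beta cell identity, was at 97.2 and 102 TPM with Ex-4 and 22.9 and 22.2 TPM with FSK (2.10 ± 0.054, adjusted p = 1.1e-20). Neurod1 was at 124 and 122 TPM with Ex-4 and 29.6 and 29.9 TPM with FSK, and Pdx1, the activator of the insulin genes, at 194 and 203 TPM with Ex-4 and 118 and 111 TPM with FSK, with log2 differences of 2.01 ± 0.051 and 0.79 ± 0.039. In CON the same genes stood at 152 and 144, 99.5 and 107, 215 and 221 and 324 and 342 TPM respectively, so Nkx2-2 with Ex-4 reached the untreated level and the FSK libraries were the lowest for all 4. Pax6, the most abundant factor of the list, was at 421 and 419 TPM with Ex-4 and 256 and 254 TPM with FSK (0.72), and Isl1 (1.31), Nkx6-1 (0.64), Mnx1 (1.36) and Hnf4a (0.59) were also higher. Foxa1, a pioneer factor of endoderm, was lower at 2.44 and 2.49 TPM with Ex-4 and 4.95 and 5.90 TPM with FSK (-0.89). Against CON, 5 of the 13 were called lower with Ex-4 and 10 with FSK.

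The insulin genes diverged. Ins2 was at 20103 and 20500 TPM with Ex-4 and 6719 and 6724 TPM with FSK (1.59 ± 0.057, adjusted p = 7.1e-18) and at 32620 and 37516 TPM in CON. Ins1 was at 45426 and 44611 TPM with Ex-4 and 41155 and 41811 TPM with FSK, a difference of 0.12 ± 0.055 that was not called, with 38834 and 42395 TPM in CON. Ins1 and Ins2 are related in sequence, and how the authors' counting assigned reads that fit both was not checked, so the share of each is uncertain. Ins1 and Ins2 together took 6.55% and 6.51% of all TPM with Ex-4, 4.79% and 4.85% with FSK, and 7.15% and 7.99% in CON. Of 9 insulin and processing genes 5 were higher and 1 was lower (median 1.01, or 0.66 with ERCC scaling). Slc30a8, the zinc transporter of the insulin granule, was at 530.2 and 479 TPM with Ex-4 and 154 and 158 TPM with FSK (1.68 ± 0.047, adjusted p = 6.0e-20). The prohormone convertases Pcsk1 and Pcsk2 differed by 1.37 ± 0.060 and 1.01 ± 0.035, and Scg5, the chaperone of PCSK2, by 1.26 ± 0.036. Pam, which amidates peptide hormones, went the other way at 1424 and 1344 TPM with Ex-4 and 2385 and 2379 TPM with FSK (-0.78 ± 0.045, adjusted p = 1.1e-13).

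**Figure D2:**
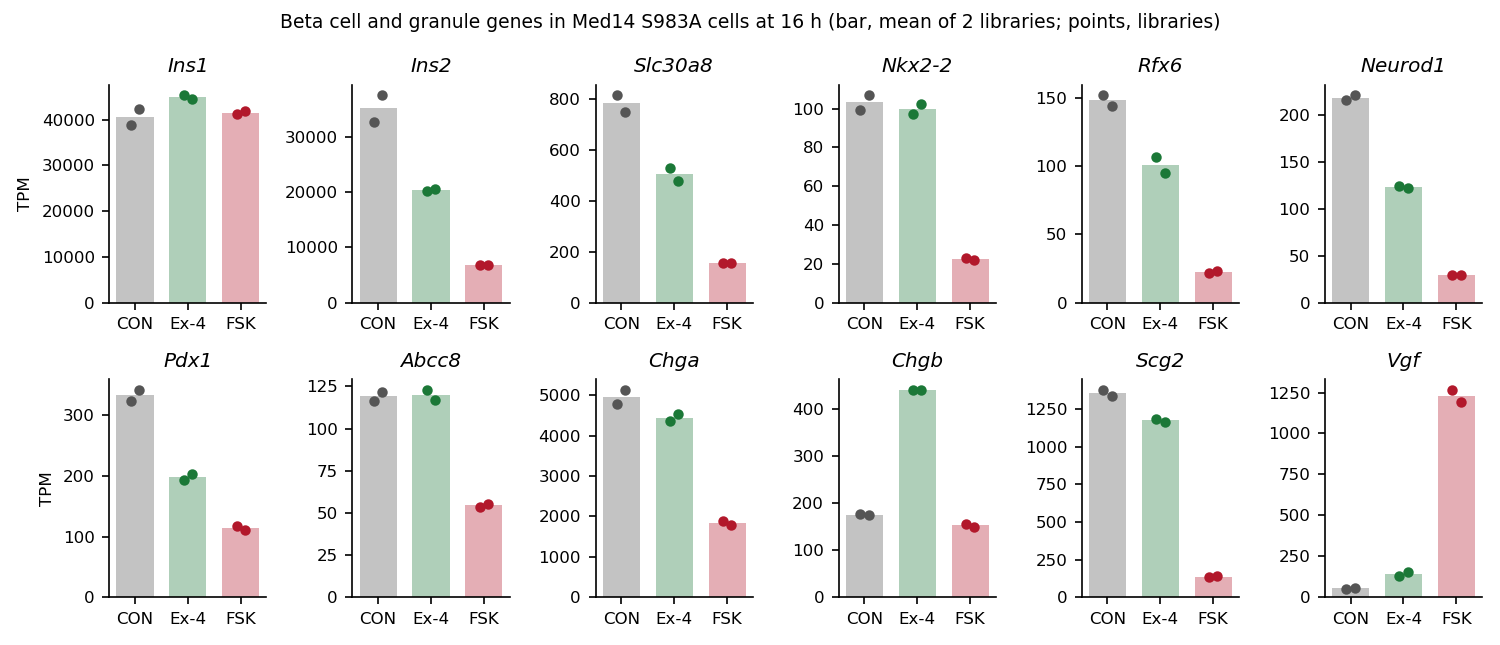
TPM of 12 beta cell and granule genes in Med14 S983A cells, with bars for the mean of 2 libraries and points for the libraries in CON (grey), 16 h Ex-4 (green) and 16 h FSK (red); every axis starts at 0. FSK is the lowest group for Ins2, Slc30a8, Nkx2-2, Rfx6, Neurod1, Pdx1, Abcc8, Chga and Scg2, whereas Vgf is highest with FSK, Chgb is highest with Ex-4 and the Ins1 bars are of similar height.

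Granins and neuropeptides split by member. Of 13 tested, 3 were higher and 5 lower with Ex-4 (median -0.11). The higher members were the structural granins Scg2, Chga and Chgb. Chga, the most abundant, was at 4366 and 4523 TPM with Ex-4 and 1895 and 1786 TPM with FSK (1.27 ± 0.041, adjusted p = 1.2e-18). Chgb was at 442 and 440.4 TPM with Ex-4 and 157 and 149.9 TPM with FSK (1.52 ± 0.055, adjusted p = 1.3e-17) and, unlike Scg2 and Chga, stood above its CON level of 176 and 176 TPM with Ex-4 (log2 1.32), while FSK differed from CON by -0.20. The lower members were Vgf, Tac1, Cck (cholecystokinin, -1.75), Gast (gastrin, -1.05) and Npw (neuropeptide W, -0.98).

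Among 25 genes of granule exocytosis 8 were higher and 3 lower (median 0.25, turning to -0.10 with ERCC scaling, which gave 7 higher and 4 lower). Rab3b, a small GTPase of secretory vesicles, was at 79.5 and 82.6 TPM with Ex-4 and 14.8 and 18.03 TPM with FSK (2.24 ± 0.058, adjusted p = 1.3e-20). Its effector Rph3al (Noc2) was at 78.8 and 84.8 TPM with Ex-4 and 18.8 and 19.7 TPM with FSK (2.03 ± 0.047, adjusted p = 1.2e-21). Syt13 (1.35), Syt11 (1.199), Cplx2 (1.15), Sytl4 (granuphilin, 1.13) and Rab27a (0.82) were higher as well. Syt4 (94.7 and 83.0 TPM with Ex-4 and 191 and 194 TPM with FSK), Cplx1 (43.2 and 41.6 TPM with Ex-4 and 80.2 and 75.2 TPM with FSK) and Syt5 (202 and 195 TPM with Ex-4 and 348 and 335 TPM with FSK) were lower. Thus complexin 1 and complexin 2, and synaptotagmins 4 and 13, moved in opposite directions. The vesicle fusion protein Vamp2 (-0.17) and Rab3a (0.25) were not called.

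Ion channel genes were more often higher with Ex-4 on the TPM scale, at 11 of 25 against 2 lower (median 0.40, 0.071 with ERCC scaling). With ERCC scaling 6 were higher and 3 lower. The calls that follow are those of the TPM scale. Both subunits of the beta cell KATP channel, which couples glucose metabolism to membrane potential, were among them. Abcc8 was at 123 and 117 TPM with Ex-4 and 53.3 and 55.6 TPM with FSK (1.12 ± 0.046, adjusted p = 1.1e-16). Kcnj11 was at 112 and 112 TPM with Ex-4 and 68.8 and 63.5 TPM with FSK (0.75 ± 0.046). The voltage-gated calcium channel genes Cacna1c (1.04), Cacna1a (1.09), Cacnb2 (1.01) and Cacnb3 (0.85), and the endoplasmic reticulum calcium pump Atp2a3 (97.1 and 97.6 TPM with Ex-4 and 38.5 and 39.2 TPM with FSK, 1.304), were higher too. The called lower members were Kcnma1, the BK potassium channel (6.72 and 6.21 TPM with Ex-4 and 11.5 and 11.8 TPM with FSK, -0.77), and Itpr3, an IP3 receptor (29.5 and 26.5 TPM with Ex-4 and 48.6 and 49.99 TPM with FSK, -0.80), while Itpr1 was higher (0.96). The widely expressed pump Atp2a2 was at 303 and 269.6 TPM with Ex-4 and 295 and 295 TPM with FSK and was not called.

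The receptor and its cAMP machinery gave a mixed picture. Glp1r, the receptor for Ex-4, was at 73.8 and 73.8 TPM with Ex-4 and 67.1 and 68.2 TPM with FSK and did not reach the fold minimum (0.12 ± 0.038, adjusted p = 0.0055). Gnas, which encodes Gs alpha and was the most abundant member, was at 2868 and 3198 TPM with Ex-4 and 2678 and 2639.6 TPM with FSK (0.19). With ERCC scaling 6 of the 29 genes of this list were higher and 2 lower (median -0.019). On the TPM scale 8 were higher and 1 was lower (median 0.32). Prkacb, a catalytic subunit of PKA, was at 68.9 and 65.0 TPM with Ex-4 and 25.6 and 25.8 TPM with FSK (1.34 ± 0.063, adjusted p = 1.7e-15). The GIP receptor gene Gipr was at 92.8 and 80.0 TPM with Ex-4 and 36.1 and 36.3 TPM with FSK (1.23 ± 0.12, adjusted p = 3.2e-09), and the glucagon receptor gene Gcgr at 39.3 and 35.6 TPM with Ex-4 and 17.7 and 18.97 TPM with FSK (0.99). The receptor kinases Grk3 (18.8 and 15.5 TPM with Ex-4 and 6.88 and 6.46 TPM with FSK, 1.24) and Grk5 (1.204) and the cAMP-binding exchange factor Rapgef4 (EPAC2, 0.99) were higher, as were the cyclases Adcy5 (0.60) and Adcy6 (0.60). Arrb1, the scaffold beta-arrestin 1 that binds activated GLP-1 receptor, was the lower one, at 4.76 and 4.32 TPM with Ex-4 and 17.5 and 16.2 TPM with FSK (-1.69 ± 0.093, adjusted p = 3.5e-14), beside 5.78 and 5.33 TPM in CON.

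Most called CREB feedback and AP-1 genes were lower with Ex-4 than with FSK, although Ex-4 had raised many of them above CON. Of 20 CREB feedback genes 8 were lower and 1 was higher (median -0.43, and with ERCC scaling 0 higher and 11 lower), and 14 were called higher than CON with each agent. Crem, for which 1 promoter window is shown above, rose from 5.48 and 3.97 TPM in CON by 2.75 with Ex-4 and 4.10 with FSK on the log2 scale. The direct difference of Crem was -1.35 ± 0.081, adjusted p = 2.4e-13. Rgs2, a brake on G protein signalling, was at 15.2 and 12.9 TPM with Ex-4 and 37.8 and 35.2 TPM with FSK (-1.32 ± 0.080, adjusted p = 2.9e-13). Sik1 (-1.31), a kinase that restrains CREB coactivators, Ppargc1a (-1.27), Pde4d (-0.97), Dusp4 (-0.90), Pde4b (-0.76) and Nr4a2 (-0.73) were lower, and the phosphatase gene Dusp10 was the higher one, at 24.6 and 24.7 TPM with Ex-4 and 13.05 and 14.3 TPM with FSK (0.81). Nr4a1 was at 50.3 and 42.4 TPM with Ex-4 and 37.2 and 33.7 TPM with FSK and was not called. Of 9 AP-1 genes 4 were lower and 0 higher (median -0.56, and with ERCC scaling 6 lower and 0 higher). Fosl2 was at 11.3 and 11.4 TPM with Ex-4 and 37.9 and 33.8 TPM with FSK (-1.58 ± 0.081, adjusted p = 9.9e-15). Junb was at 20.2 and 22.5 TPM with Ex-4 and 56.2 and 51.6 TPM with FSK (-1.298). Fos was at 7.11 and 4.91 TPM with Ex-4 and 10.6 and 9.59 TPM with FSK (-0.68). All 3 had separate groups of libraries. Fosl1 was at 0.157 and 0.0200 TPM with Ex-4 and 3.13 and 2.34 TPM with FSK (-1.77), below 1 TPM with Ex-4.

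**Figure D3:**
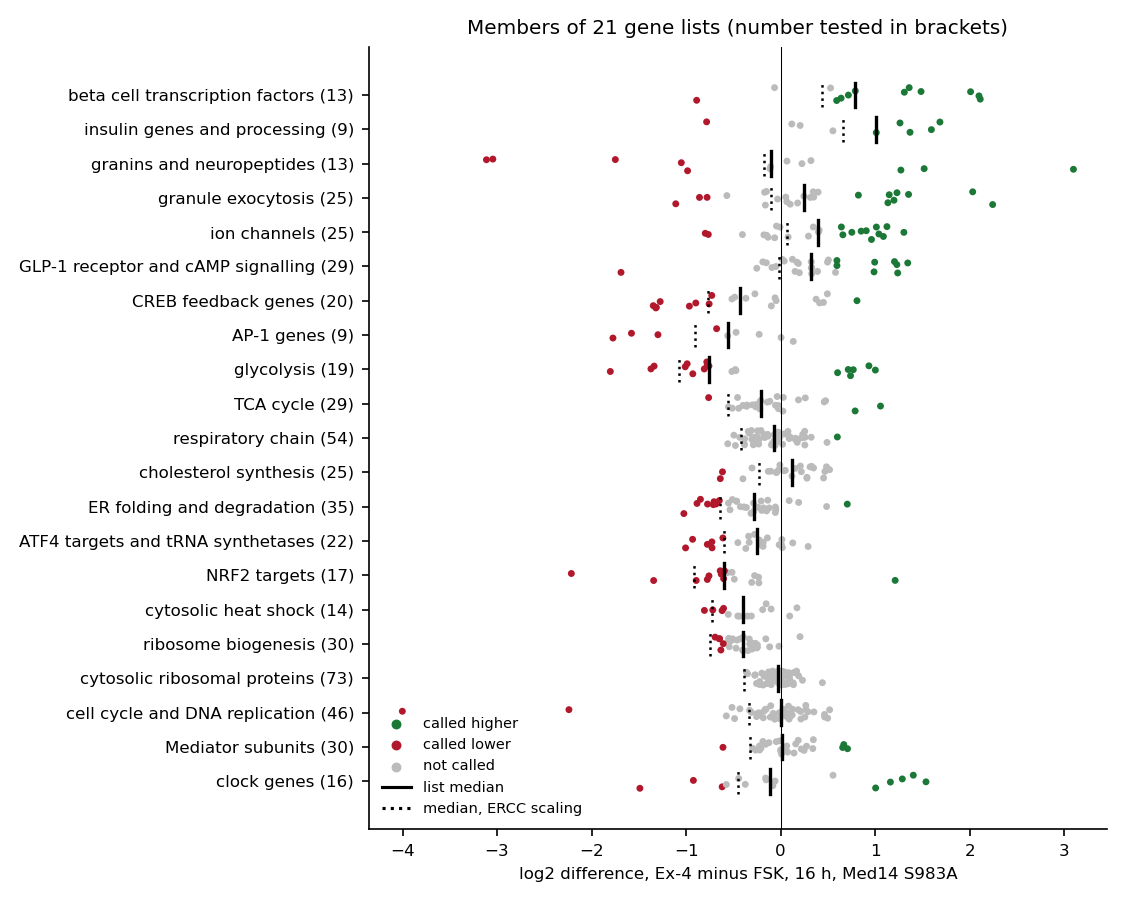
Each point is 1 gene, placed by its log2 difference between Ex-4 and FSK at 16 h in Med14 S983A cells, in 21 gene lists with the number of genes tested in brackets; green points were called higher, red lower and grey were not called, the solid bar is the list median and the dotted bar the median with ERCC scaling. Beta cell transcription factors and insulin genes sit to the right (medians 0.79 and 1.01), and glycolysis, NRF2 targets and AP-1 genes to the left (medians -0.76, -0.60 and -0.56).

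Glycolytic genes separated by isoform. Of 19 tested, 6 were higher and 10 lower with Ex-4 (median -0.76). The higher members included Slc2a2, the beta cell glucose transporter, at 44.0 and 39.6 TPM with Ex-4 and 24.4 and 23.8 TPM with FSK (0.77 ± 0.050, adjusted p = 1.2e-12). Pklr, the liver-type pyruvate kinase, was at 82.4 and 85.7 TPM with Ex-4 and 42.1 and 40.9 TPM with FSK (1.002). Pfkfb2 (0.93), Pfkm (0.60) and Aldoc (0.71) were higher as well. The lower members included Slc2a1, the widely expressed glucose transporter, at 70.9 and 74.1 TPM with Ex-4 and 179.8 and 189.9 TPM with FSK (-1.34 ± 0.073, adjusted p = 3.4e-14). Slc16a1, the lactate and pyruvate carrier MCT1 that beta cells normally keep low, was at 28.7 and 25.1 TPM with Ex-4 and 94.4 and 97.9 TPM with FSK (-1.80 ± 0.075, adjusted p = 1.6e-16). Pfkp, the platelet-type phosphofructokinase, was at 50.8 and 55.3 TPM with Ex-4 and 138 and 139.8 TPM with FSK (-1.37). Gapdh was at 1859 and 1951 TPM with Ex-4 and 3347 and 3324 TPM with FSK (-0.81). Aldoa (-0.93), Pgk1 (-1.01), Eno1 (-0.76), Pgam1 (-0.78), Ldhb (-0.99) and Pfkfb3 (-0.78) were lower. Thus the pairs Slc2a2 and Slc2a1, Pfkm and Pfkp, Aldoc and Aldoa, and Pfkfb2 and Pfkfb3 each had opposite calls on the TPM scale. With ERCC scaling the list had 2 higher and 13 lower calls (median -1.08), and of these pairs only Pfkfb2 and Pfkfb3 kept both calls. Slc2a2, Pfkm and Aldoc lost theirs, Pfkm also with median centring.

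Of 9 Txnip and ChREBP genes 3, including Pklr, were higher and none was lower (3 higher and 1 lower with ERCC scaling). Mlxipl, the glucose-responsive factor ChREBP, was at 139 and 126 TPM with Ex-4 and 38.7 and 40.4 TPM with FSK (1.71 ± 0.081, adjusted p = 1.7e-15), and its target Arrdc4 at 57.4 and 53.8 TPM with Ex-4 and 15.6 and 15.3 TPM with FSK (1.78 ± 0.067, adjusted p = 2.2e-17). Txnip, another ChREBP target, did not follow them, at 5.93 and 4.49 TPM with Ex-4 and 6.32 and 6.34 TPM with FSK (-0.25) beside 55.9 and 52.9 TPM in CON. In the TCA cycle list of 29 genes, Pdk2, a kinase that inhibits pyruvate dehydrogenase (19.9 and 19.7 TPM with Ex-4 and 9.02 and 8.99 TPM with FSK, 1.06), and Pc, pyruvate carboxylase (0.79), were higher and Sucla2 was lower (-0.76), and with ERCC scaling 1 higher and 11 lower. On the TPM scale Ndufb2 (0.60) alone was called among 54 respiratory chain genes. That call was lost with both other scalings. Median centring left 2 lower calls and 0 higher, and under ERCC scaling 17 of the list were lower and 0 higher. Over all 10275 genes tested ERCC scaling gave 2029 lower and 531 higher calls. Of 22 fatty acid synthesis genes 1 was higher (Lpin1, 0.85) and 3 were lower, led by Acsl5 at 87.6 and 83.2 TPM with Ex-4 and 215 and 208 TPM with FSK (-1.299) and Dgat2 (-0.84), and Hadh (0.81) alone was called among 16 genes of fatty acid oxidation. With ERCC scaling these lists had 0 higher and 5 lower, and 0 higher and 1 lower, respectively. In cholesterol synthesis 2 of 25 genes were lower, among them Cyp51 (348 and 329 TPM with Ex-4 and 519 and 519 TPM with FSK, -0.62), and none was higher, although both agents had raised most of the list above CON, with 17 called higher with Ex-4 and 13 with FSK. With ERCC scaling 4 of this list were lower and 0 higher. Hmgcs1 (0.35), Fasn (0.18), Mdh1 (-0.36) and Slc25a1 (0.39), metabolic genes named in the study, were not called.

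In the stress response groups most called members were lower with Ex-4. NRF2 targets, which protect against oxidants, had 9 lower and 1 higher of 17 (median -0.60). Hmox1, haem oxygenase 1, was at 17.6 and 23.4 TPM with Ex-4 and 97.2 and 98.2 TPM with FSK (-2.21 ± 0.084, adjusted p = 2.9e-17). Srxn1, sulfiredoxin, was at 61.5 and 63.8 TPM with Ex-4 and 167 and 154 TPM with FSK (-1.34 ± 0.052, adjusted p = 4.1e-17), while Gstm1 was the exception (10.1 and 10.3 TPM with Ex-4 and 3.79 and 3.88 TPM with FSK, 1.21). Of 35 genes of endoplasmic reticulum folding and degradation 8 were lower and 1, Sil1, was higher (0.70), with Dnajc3 at 89.2 and 82.8 TPM with Ex-4 and 180.5 and 171 TPM with FSK (-1.02). Ern1, the IRE1 sensor, was at 16.8 and 15.5 TPM with Ex-4 and 30.2 and 31.2 TPM with FSK (-0.88). Hspa5, the chaperone BiP, was at 2422 and 2258 TPM with Ex-4 and 3500.2 and 3286 TPM with FSK (-0.54), short of the fold minimum. Among 22 ATF4 targets and tRNA synthetases 6 were lower and 0 higher, including Ppp1r15a (60.9 and 63.6 TPM with Ex-4 and 129 and 123 TPM with FSK, -1.01), Cebpb (-0.93), Ddit3 (-0.73) and Slc7a11 (-0.78). Cytosolic heat shock genes had 4 lower of 14, led by Hsph1 (-0.81) and Hspa8 (694 and 737 TPM with Ex-4 and 1164 and 1192 TPM with FSK, -0.72), and ribosome biogenesis genes 5 of 30, including Rrs1 (-0.69) and Ddx21 (-0.65). None of 73 cytosolic ribosomal protein genes was called in either direction on the TPM scale. With ERCC scaling the lower calls were 14 for NRF2 targets, 21 for folding and degradation, 11 for ATF4 targets, 9 for heat shock, 26 for ribosome biogenesis and 5 for ribosomal protein genes. Over all 10275 genes tested 2029 were called lower in that scaling.

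Of 46 genes of the cell cycle and DNA replication, Ccnd1 and Cdkn1a, given above, were the only calls on the TPM scale, and there were 4 lower calls with median centring and 10 with ERCC scaling. Against CON, 26 of the list fell with Ex-4 and 23 with FSK. The survival gene Bcl2 was at 7.16 and 6.20 TPM with Ex-4 and 3.43 and 4.15 TPM with FSK (0.68) and the pro-death BH3-only gene Hrk at 17.7 and 16.7 TPM with Ex-4 and 10.5 and 11.1 TPM with FSK (0.63), the only calls among 11 genes of the BCL2 family on the TPM scale (with ERCC scaling 0 higher and 3 lower). Clock genes gave 5 higher and 3 lower calls of 16, or 5 and 6 with ERCC scaling. Dbp (67.8 and 81.2 TPM with Ex-4 and 24.2 and 25.7 TPM with FSK, 1.54), Per3 (1.40), Nr1d1 (1.005), Nr1d2 (1.16) and Tef (1.29) were higher, and Arntl (BMAL1, 22.7 and 22.6 TPM with Ex-4 and 44.6 and 43.0 TPM with FSK, -0.92), Cry1 (-0.62) and Rorb (-1.49) were lower. Of 11 ID and TGF-beta target genes 3 were lower, namely Tgfb2 (-1.004), Id1 (-0.67) and Id4 (58.1 and 51.1 TPM with Ex-4 and 88.2 and 83.4 TPM with FSK, -0.65). With ERCC scaling 6 of these 11 were lower and 0 higher. Among 22 cytoskeletal genes Tpm2 was the only call (-1.56) on the TPM scale, beside 0 higher and 6 lower with ERCC scaling. Of 30 Mediator genes Med23 (50.4 and 48.5 TPM with Ex-4 and 29.6 and 30.2 TPM with FSK, 0.71), Med25 (0.67) and Cdk19 (0.66) were higher and Med30 was lower (-0.61), while Med19 (-0.16) and Med14 were not called. With ERCC scaling the Mediator list had 0 higher and 3 lower calls, beside 531 and 2029 over all 10275 genes tested.

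Few markers of other cell types were expressed at all. Of 8 alpha cell markers 3 passed the filter on low values. Gcg, the glucagon gene, was at 45.5 and 43.4 TPM with Ex-4 and 113 and 101 TPM with FSK (-1.247 ± 0.068, adjusted p = 3.4e-14). Gc, the vitamin D binding protein, was at 1339 and 1334 TPM with Ex-4 and 476 and 492 TPM with FSK (1.47 ± 0.041, adjusted p = 5.3e-20). Gc made up most of the list's summed level, which was 1388 and 1382 TPM with Ex-4 and 589 and 594 TPM with FSK. None of 6 delta and PP cell markers passed the filter, with a summed level of 0.201 to 0.301 TPM with Ex-4 and 0.529 to 0.58 TPM with FSK. None of 10 immune and endothelial markers passed either, at 0.586 to 0.673 and 1.40 to 1.89 TPM. Their part in any result was not tested. Of 15 acinar markers 2 passed the filter and 0 were called, and neither of the 2 fibroblast markers tested nor the 1 duct marker tested (Sox9) was called.

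The same comparison in WT cells, on 4 libraries that share none with the Med14 S983A comparison, called 1176 genes (11.4%) higher and 749 (7.29%) lower with Ex-4. Of the 1085 genes higher in Med14 S983A, 748 were higher in WT, which is 68.9% of the Med14 S983A list and 63.6% of the WT list. Of the 592 lower genes 349 were lower in WT, 59.0% and 46.6% of the lists, and 3 and 2 genes were called in opposite directions. Across the 10275 genes the log2 differences in the 2 genotypes correlated at r = 0.781, a description only, since genes are not independent replicates. The genotype difference itself was tested as an interaction, in which a positive value means a more positive Ex-4 minus FSK difference in Med14 S983A than in WT. It was called positive for 407 genes (3.96%) and negative for 329 (3.2%), or 182 and 1233 with ERCC scaling. Genotype and the clonal origin of the knock-in lines cannot be told apart here.

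**Figure D4:**
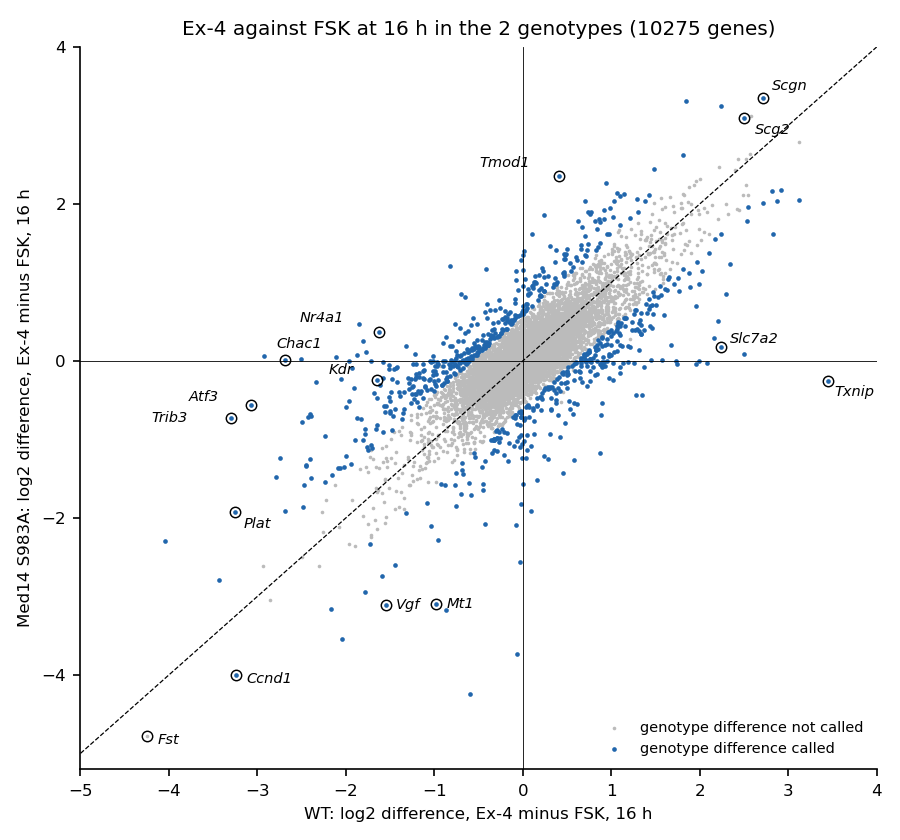
Each point is 1 of the 10275 genes tested, with the log2 difference between Ex-4 and FSK at 16 h in WT on the horizontal axis and in Med14 S983A on the vertical axis; blue points had a called genotype difference and the dashed line marks equal values. Scgn, Scg2, Fst, Ccnd1 and Vgf keep their side in both genotypes, whereas Trib3, Chac1, Atf3 and Txnip lie far to the left or right of the line, within 1 of 0 in Med14 S983A.

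The clearest group in the genotype difference was that of ATF4 targets and tRNA synthetases, genes of the amino acid and integrated stress response. In WT, 19 of the 22 were lower with Ex-4 than with FSK, against 6 in Med14 S983A, and the interaction was called positive for 17 and negative for 0 (median 0.89, beside 0.0096 over all genes). With ERCC scaling, which moved the median of all genes to -0.28, 11 of the 22 remained positive and none was negative. Trib3, a pseudokinase induced by ATF4 and CHOP, was at 86.5 and 87.0 TPM with Ex-4 and 142 and 146 TPM with FSK in Med14 S983A, and at 8.32 and 8.81 TPM with Ex-4 and 90.9 and 95.9 TPM with FSK in WT, an interaction of 2.58 ± 0.13, adjusted p = 1.6e-13. Chac1, a glutathione-degrading enzyme, was at 94.6 and 90.8 TPM with Ex-4 and 88.5 and 95.4 TPM with FSK in Med14 S983A and at 11.2 and 9.77 TPM with Ex-4 and 72.0 and 73.7 TPM with FSK in WT (2.70 ± 0.12, adjusted p = 2.0e-14). Atf4 was at 1130.2 and 1082 TPM with Ex-4 and 1515 and 1513 TPM with FSK and at 409 and 421 TPM with Ex-4 and 1066 and 1116 TPM with FSK respectively (0.94 ± 0.070, adjusted p = 1.5e-10). In these genes the WT Ex-4 libraries were the low ones, and the Med14 S983A Ex-4 libraries stood much nearer to FSK. Aldh1l2, a mitochondrial folate enzyme (2.17), and Slc2a9, a urate transporter (2.07), which belong to no list, were also among the 5 largest.

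AP-1 and CREB feedback genes pointed the same way, with the interaction called positive for 6 of 9 and 7 of 20 and negative for none. With ERCC scaling these counts were 6 positive and 1 negative for AP-1 and 3 and 2 for CREB feedback genes. Atf3 was at 35.1 and 31.2 TPM with Ex-4 and 48.4 and 50.1 TPM with FSK in Med14 S983A and at 5.36 and 6.51 TPM with Ex-4 and 54.9 and 59.8 TPM with FSK in WT (2.52 ± 0.14, adjusted p = 3.6e-13). Nr4a1, an orphan nuclear receptor that responds early to cAMP, was higher in both Ex-4 libraries than in either FSK library in Med14 S983A, and in WT it was at 21.4 and 22.2 TPM with Ex-4 and 70.9 and 68.1 TPM with FSK (2.002 ± 0.12, adjusted p = 1.8e-12). Insulin genes and processing had 5 positive calls of 9, and 0 with ERCC scaling. Ins2 was not one of them (0.48), and its untreated level differed between the lines, at 2885 and 2991 TPM in WT CON beside 32620 and 37516 TPM in Med14 S983A CON. The respiratory chain, glycolysis and Mediator lists held no called interaction on the TPM scale, and 1, 3 and 0 negative ones with ERCC scaling.

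The most negative interaction was that of Txnip, which encodes an inhibitor of thioredoxin and of glucose uptake. It was at 5.93 and 4.49 TPM with Ex-4 and 6.32 and 6.34 TPM with FSK in Med14 S983A and at 33.1 and 32.8 TPM with Ex-4 and 1.92 and 2.33 TPM with FSK in WT (-3.69 ± 0.12, adjusted p = 7.0e-17). Ex-4 and FSK were thus both low in Med14 S983A, while in WT the Ex-4 libraries were far above FSK. Untreated cells also differed, at 329 and 312 TPM in WT and 55.9 and 52.9 TPM in Med14 S983A. Mt1 was at 54.5 and 61.4 TPM with Ex-4 and 109 and 123 TPM with FSK in WT (-2.11 ± 0.15, adjusted p = 1.1e-10). Slc7a2, a cationic amino acid transporter, was at 9.54 and 9.27 TPM with Ex-4 and 7.83 and 8.59 TPM with FSK in Med14 S983A and at 46.1 and 49.3 TPM with Ex-4 and 8.76 and 9.87 TPM with FSK in WT (-2.06 ± 0.14, adjusted p = 3.7e-11). Misp3 (-1.88) and Gpd1, glycerol-3-phosphate dehydrogenase (-1.84), completed the 5. The study names Kdr, Osbpl6 and Plat as delayed-early genes, and Bcar1 and Ctrb1 from a diabetes-associated locus. Of these 5, 4 had a called positive interaction on the log2(TPM + 1) scale, and Bcar1 (-0.13) did not. Ctrb1 was at 1.53 and 1.76 TPM with Ex-4 and 0.935 and 1.63 TPM with FSK in Med14 S983A (0.78). Osbpl6 was at 4.17 and 3.996 TPM with Ex-4 and 5.48 and 5.22 TPM with FSK (0.78, or 0.54 with ERCC scaling and then not called). Kdr was at 0.0380 and 0.0750 TPM with Ex-4 and 0.262 and 0.242 TPM with FSK (1.41). Plat, tissue plasminogen activator, was at 0.211 and 0.149 TPM with Ex-4 and 3.60 and 3.35 TPM with FSK in Med14 S983A and at 5.51 and 6.49 TPM with Ex-4 and 63.4 and 68.1 TPM with FSK in WT (1.33 ± 0.13, adjusted p = 1.4e-08). Its interaction turned negative with a pseudocount of 0.1 (-0.25), by edgeR (-0.82) and by DESeq2 (-0.86), so its direction depends on the added TPM. By edgeR and DESeq2 the Kdr interaction was 0.42 and 0.39 and was not called. Plat and Kdr are below 1 TPM in the Med14 S983A Ex-4 libraries, where adding 1 TPM compresses differences.

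**Figure D5:**
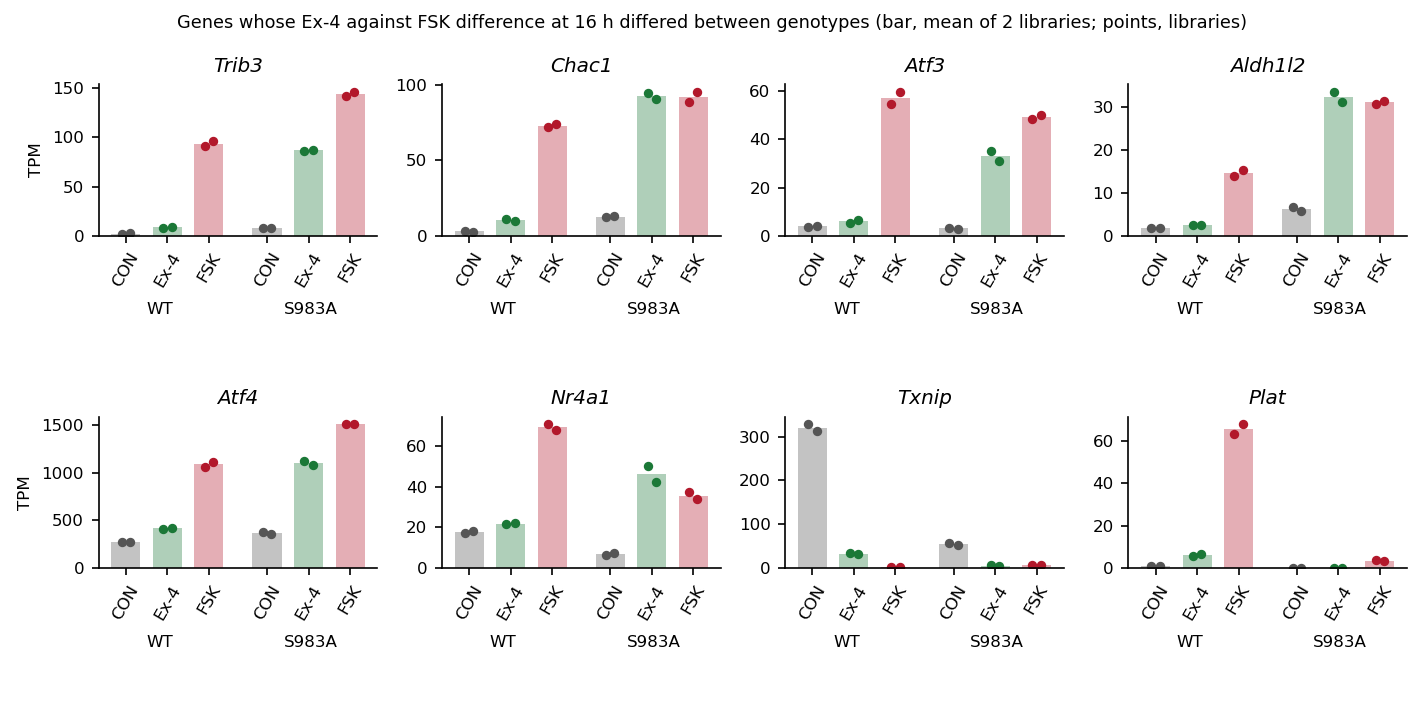
TPM of 8 genes in untreated (CON, grey), 16 h Ex-4 (green) and 16 h FSK (red) cells of WT (left of each panel) and Med14 S983A (right), with bars for the mean of 2 libraries and points for the libraries; every axis starts at 0. For Trib3, Chac1, Atf3, Aldh1l2 and Atf4 the Ex-4 bar is nearer to CON than to FSK in WT and nearer to FSK in Med14 S983A, Txnip is higher with Ex-4 than with FSK only in WT, and Plat is high with FSK mainly in WT.

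At 8 h in the same line, on 4 other libraries, the difference between Ex-4 and FSK had another shape for many genes. The interaction of time, 16 h minus 8 h, was called positive for 448 genes (4.36%) and negative for 2220 (21.6%), with a median of -0.20 over all genes. These counts became 919 and 1197 with median centring and 131 and 5424 with ERCC scaling, so the balance of directions depends on the scaling. The 8 h FSK libraries held 9827 and 9816 genes at 1 TPM or more, beside 10091 to 10140 in the other groups of this comparison. Their 50 most abundant genes took 20.1% and 19.8% of all TPM, beside 17.1% to 18.2%. The part of this shift in the calls was not tested. Pdlim1, a cytoskeletal adaptor, had the largest positive value. It was at 72.5 and 75.2 TPM with Ex-4 and 47.4 and 43.6 TPM with FSK at 16 h and at 108 and 110.3 TPM with Ex-4 and 326 and 322 TPM with FSK at 8 h (2.25 ± 0.065, adjusted p = 2.5e-18). Ret, a receptor tyrosine kinase (2.09), followed, but lay below 1 TPM in all 4 libraries at 16 h, and Mir3547 was the next (1.996). Tspan17, a tetraspanin, had the most negative value, at 17.2 and 16.8 TPM with Ex-4 and 24.9 and 23.4 TPM with FSK at 16 h and 16.5 and 17.001 TPM with Ex-4 and 2.84 and 2.83 TPM with FSK at 8 h (-2.69 ± 0.075, adjusted p = 2.5e-18), followed by Rab26, a vesicle GTPase (-2.30), and Dhrs1 (-2.14). For all 3 the 8 h FSK libraries were the low ones. The granule genes at the head of the comparison grew apart with time. Scg2 was at 846 and 806 TPM with Ex-4 and 284 and 289.7 TPM with FSK at 8 h (1.57 ± 0.052, adjusted p = 2.4e-17), and Scgn at 923 and 935 TPM with Ex-4 and 268 and 265 TPM with FSK (1.56 ± 0.069, adjusted p = 3.8e-15). Fst, at 3.54 and 3.72 TPM with Ex-4 and 132 and 132 TPM with FSK at 8 h, and Vgf, at 204 and 194 TPM with Ex-4 and 1584 and 1529.9 TPM with FSK, had time differences of 0.068 and -0.15 that were not called. CREB feedback genes had 13 positive and 0 negative calls of 20, or 6 and 4 with ERCC scaling, and Crem stood at 34.1 and 36.6 TPM with Ex-4 and 209 and 208 TPM with FSK at 8 h (1.18), so the deficit under Ex-4 was smaller at 16 h.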

How the data were processed

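RNA from INS-1 cells of 2 genotypes was spiked with ERCC control RNAs and sequenced from strand-specific libraries. The authors aligned reads with STAR 2.5.3a to rn6 plus the ERCC sequences and deposited TPM values (length-corrected shares of all transcripts) per RefSeq transcript, computed with HOMER 4.11.1 over exons, and whole-number counts of the ERCC sequences. The study's own test, DESeq2 1.24.0 with ERCC size factors, needs gene counts, and no column of its results was used. TPM is relative, so a few very abundant transcripts or a change in total RNA shifts the rest. The 92 ERCC lines of the 19223 deposited were dropped, and the transcript with the highest mean TPM was kept for each of 17455 symbols (1676 others left out). Samples were grouped by the labelled genotype, treatment and time. The members and gene lists were chosen with earlier results of these data known.

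The 10275 genes that averaged 1 TPM or more across all 28 libraries were fitted with limma 3.58.1 (R 4.3.3, empirical Bayes with trend) on log2(TPM + 1), with 14 group means and 14 residual degrees of freedom. Adjusted p-values (Benjamini-Hochberg, two-sided) cover all genes tested, and a call needed an adjusted p below 0.05 and a fold above 1.5. Fold changes are on the log2(TPM + 1) scale, which understates the change of low genes. Fragments could be recovered from the TPM, transcript lengths and ERCC counts. The check covered 136161 values under 1000 fragments, at 2 reads per fragment. Of these 100% lay within 0.05 fragments, plus table rounding, of a whole number of reads. The values were then rounded to whole fragments. On these edgeR 4.0.16 and DESeq2 1.42.0 were run as alternatives, calling 1223 and 793, and 1171 and 853, genes higher and lower. Other alternatives were another pseudocount, filter, scaling and set of libraries, a replicate block, no fold minimum and leaving out each library. The 4 libraries held 46119925 to 53755735 fragments.

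The genes named were, among those with a mean of at least 10 TPM that were called and had separate libraries, the 12 with the largest difference in each direction; in each of 34 gene lists up to 2 called members in each direction and the member with the highest mean over the 28 libraries; 15 genes that the study names; and the 5 and 3 largest genotype and time differences in each direction. Other list members were named after their values were seen, and some genes that the rule names are not reported here.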

Additional observations from a re-analysis of the deposited data

Results flagged for a closer look

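For 60 genes named in the report whose difference between Ex-4 and FSK at 16 h differed between Med14 S983A and WT by the limma interaction term (adjusted p below 0.05 and a fold above 1.5), the interaction values follow, as log2 Med14 S983A minus WT. Among beta cell factors and insulin processing the value was positive for Nkx2-2 (1.001), Pcsk2 (0.88), Pcsk1 (0.88), Slc30a8 (0.84), Rfx6 (0.69) and Scg5 (0.59). Among granule genes the value was positive for Sytl4 (0.67), Scg2 (0.60) and Syt4 (0.59). Among granule genes the value was negative for Npw (-0.69), Gast (-0.90) and Vgf (-1.56). Among channels and cAMP machinery the value was positive for Itpr1 (0.86) and Prkacb (0.64). Among CREB feedback and AP-1 genes the value was positive for Atf3 (2.52), Nr4a1 (2.002), Fos (1.73), Rgs2 (1.13), Fosl2 (0.89), Crem (0.68) and Sik1 (0.63). Among ATF4 targets the value was positive for Chac1 (2.70), Trib3 (2.58), Slc7a11 (1.72), Ddit3 (1.15), Atf4 (0.94), Ppp1r15a (0.89) and Cebpb (0.85). Among folding, oxidant and heat shock genes the value was positive for Ern1 (0.60). Among metabolic genes the value was positive for Hmgcs1 (0.74). Among metabolic genes the value was negative for Acsl5 (-0.61), Arrdc4 (-0.75) and Txnip (-3.69). Among the remaining genes the value was positive for Aldh1l2 (2.17), Slc2a9 (2.07), Tmod1 (1.95), Gprc5a (1.75), Mir3547 (1.46), Kdr (1.41), Plat (1.33), Wif1 (1.01), Olfml2b (0.97), Pcp4l1 (0.82), Tgfb2 (0.81), Osbpl6 (0.78), Hrk (0.77) and Ifi27l2b (0.65). It was also positive for Scgn (0.64). Among the remaining genes the value was negative for Tpm2 (-0.64), Tspan17 (-0.70), Cry1 (-0.73), Ccnd1 (-0.76), Plk2 (-1.16), Epha2 (-1.16), Ret (-1.26), Gcg (-1.53), Gpd1 (-1.84), Misp3 (-1.88), Slc7a2 (-2.06) and Mt1 (-2.11). For Plat and Gprc5a the sign turned by edgeR and DESeq2, and for Plat also with a pseudocount of 0.1. The Kdr value was not called by edgeR or DESeq2, and the Osbpl6 value was not called with ERCC scaling. ERCC scaling moved the median genotype difference of all genes from 0.0096 to -0.28, and positive calls over all genes from 407 to 182. In that scaling 0 of the insulin and processing genes were called, so the smaller values depend on the scaling. Genotype and clonal origin cannot be told apart for these values, and no further explanation was tested.

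For 80 genes the difference between Ex-4 and FSK in Med14 S983A differed between 16 h and 8 h by the same kind of test, and the values are log2 differences of 16 h minus 8 h. Among beta cell factors and insulin processing the value was positive for Ins2 (1.08), Rfx6 (0.91), Slc30a8 (0.81), Scg5 (0.81), Mnx1 (0.77), Nkx2-2 (0.75) and Pcsk2 (0.71). Among granule genes the value was positive for Scg2 (1.57), Gast (1.10), Chga (1.06), Syt13 (0.73) and Syt4 (0.61). Among granule genes the value was negative for Rph3al (-0.59) and Npw (-1.18). Among channels and cAMP machinery the value was positive for Atp2a3 (1.22), Atp2a2 (0.98), Itpr1 (0.74), Kcnma1 (0.70), Cacna1c (0.60) and Gipr (0.59). Among channels and cAMP machinery the value was negative for Gcgr (-0.76) and Arrb1 (-1.03). Among CREB feedback and AP-1 genes the value was positive for Nr4a2 (1.499), Fosl2 (1.31), Sik1 (1.255), Fosl1 (1.254), Fos (1.203), Crem (1.18), Atf3 (1.15), Nr4a1 (1.09), Rgs2 (0.91), Junb (0.87), Dusp4 (0.84) and Pde4d (0.72). Among ATF4 targets the value was positive for Trib3 (1.67), Chac1 (1.44), Ddit3 (1.41), Ppp1r15a (1.10), Slc7a11 (1.09) and Atf4 (0.79). Among folding, oxidant and heat shock genes the value was positive for Hspa5 (0.76). Among folding, oxidant and heat shock genes the value was negative for Sil1 (-0.77), Hspa8 (-0.84) and Hsph1 (-0.94). Among metabolic genes the value was positive for Hmgcs1 (1.47), Pfkfb2 (1.04) and Slc2a2 (0.89). Among metabolic genes the value was negative for Eno1 (-0.59), Pfkp (-0.60), Fasn (-0.61), Slc25a1 (-0.62), Pfkm (-0.69), Pdk2 (-0.85), Pklr (-1.09) and Txnip (-2.10). Among the remaining genes the value was positive for Pdlim1 (2.25), Ret (2.09), Mir3547 (1.996), Wif1 (1.91), Scgn (1.56), Baiap3 (1.55), Fxyd6 (1.26), Gprc5a (1.11), Kdr (1.08), Tgfb2 (1.04), Id4 (0.99), Ccnd1 (0.73), Gc (0.68) and Rorb (0.66). It was also positive for Aldh1l2 (0.65) and Tmod1 (0.61). Among the remaining genes the value was negative for Ifi27l2b (-0.64), Med30 (-0.94), Tpm2 (-0.98), Gpd1 (-1.302), Mt1 (-1.62), S100a4 (-1.73), Dhrs1 (-2.13), Rab26 (-2.30) and Tspan17 (-2.69). For Ccnd1 the sign turned with a pseudocount of 0.1, by edgeR and by DESeq2, and for Gprc5a by DESeq2 with ERCC size factors. With ERCC scaling the median time difference of all genes moved from -0.20 to -0.62, so the direction of the smaller values depends on the scaling.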

How the results depend on the processing

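The counts between Ex-4 and FSK at 16 h in Med14 S983A, 1085 and 592 genes higher and lower, stayed within 1.5 times with a pseudocount of 0.1 (1315 and 703), without a filter on low values (1103 and 677), with a mean of at least 5 TPM (900 and 431), with median centring (859 and 789), and by edgeR (1223 and 793) and DESeq2 (1171 and 853) on the recovered fragments. With each of the 4 libraries left out in turn they ran from 1043 to 1158 and from 578 to 619, and 1003 to 1058 of the 1085 higher and 542 to 570 of the 592 lower genes kept their call. A lone library was then assumed to vary like the other groups. Without Ex-4 replicate 2, 1 of the 1085 higher genes changed sign on the TPM scale and 2 did with ERCC scaling. Of 1678 genes past the fold minimum all but 1 also passed the adjusted p, so the fold minimum set the counts. Without it they became 3901 and 2991, those of the genotype difference 2013 and 1881, of the time difference 1699 and 5022, of Ex-4 against CON 2529 and 3830, of FSK against CON 3302 and 4804 and of Ex-4 against FSK in WT 3859 and 3164. Scaling to the ERCC spike-ins gave 531 and 2029 for the direct comparison, 182 and 1233 for the genotype difference, 131 and 5424 for the time difference and 2102 and 1418 for FSK against CON. DESeq2 with ERCC size factors gave 672 and 2258, 197 and 1381 and 143 and 5775 for the first 3 of these, 2259 genes higher with FSK than in CON and 1281 lower with Ex-4 than in CON. The time difference also had 919 and 1197 calls with median centring, and 1015 and 1008 positive calls by edgeR and DESeq2. Combining ERCC scaling with leaving out each library, an alternative chosen after seeing the data, gave 432 to 679 higher and 1327 to 2996 lower genes. Both Ex-4 libraries decided this, with 679 and 1327 without Ex-4 replicate 1 and 432 and 2996 without Ex-4 replicate 2, and the cause was not tested.

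The labels number the replicates alike in every group, but same-numbered Ex-4 and FSK libraries of Med14 S983A did not deviate together (r = -0.063 across genes), so the numbers were not taken as pairs. With the replicate number as a block the direct counts were again 1085 and 592, since a block leaves the differences of a balanced design as they are, and 0 calls changed in any of the 6 comparisons. With only the libraries of the comparison in the fit, 2 direct calls changed.

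No gene named in the report that was called between Ex-4 and FSK reversed its sign. Of the 3394 values for 179 named genes under the alternatives, 178 lost a call, 85 gained one and 72 reversed, all in genes not called. On the log2 scale the reversed values were, with median centring, Aldh1l2 (-0.038), Chac1 (-0.078) and Med14 (-0.090). With ERCC scaling they were Aldh1l2 (-0.29), Chac1 (-0.34), Fasn (-0.17), Glp1r (-0.22), Gnas (-0.16), Hmgcs1 (-0.0015), Ins1 (-0.23), Med14 (-0.34), Rab3a (-0.10) and Slc7a2 (-0.14). By DESeq2 they were Aldh1l2 (-0.0088), Chac1 (-0.051) and Med14 (-0.064), with ERCC size factors Aldh1l2 (-0.30), Chac1 (-0.34), Fasn (-0.17), Glp1r (-0.22), Gnas (-0.15), Ins1 (-0.23), Med14 (-0.35), Rab3a (-0.096) and Slc7a2 (-0.16), and by edgeR Chac1 (-0.027) and Med14 (-0.040). Over all fits that left out a library, on either scale, values ran for Aldh1l2 from -0.36 to 0.11, Atp2a2 from -0.44 to 0.039, Chac1 from -0.44 to 0.067, Dhrs1 from -0.45 to 0.014, Fasn from -0.28 to 0.21, Glp1r from -0.35 to 0.14, Gnas from -0.38 to 0.27, Hmgcs1 from -0.085 to 0.40, Ins1 from -0.35 to 0.13, Med14 from -0.42 to 0.053, Nr4a1 from -0.028 to 0.49, Rab3a from -0.27 to 0.28, Slc25a1 from -0.16 to 0.45 and Slc7a2 from -0.24 to 0.24. The 140 called genotype and time differences of named genes reversed in 12 of 2653 values and lost the call in 185. The genotype difference reversed for Plat (-0.25 with a pseudocount of 0.1, -0.82 by edgeR, -0.86 by DESeq2 and -1.14 by DESeq2 with ERCC size factors) and Gprc5a (-0.079 by edgeR, -0.11 by DESeq2 and -0.40 by DESeq2 with ERCC size factors), and the time difference for Ccnd1 (-0.20 with a pseudocount of 0.1, -0.31 by edgeR, -0.31 by DESeq2 and -0.99 by DESeq2 with ERCC size factors) and Gprc5a (-0.080 by DESeq2 with ERCC size factors). Of 551 list medians 257 moved by more than 1 SD of the median over the 4 pairings of Ex-4 and FSK libraries.

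Each group had 2 libraries, for which an exact permutation test cannot give a two-sided p below 0.333, so every p rests on limma's pooled spread. At 46119925 fragments or more in each of the 4 libraries, depth limits mainly genes under 1 TPM, where adding 1 TPM compresses differences.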
